A study of Mus musculus with 15 samples.

Results

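The genes described here are 10 immediate early genes, namely Fos, Fosb, Jun, Junb, Egr1, Ier2, Atf3, Dusp1, Klf4 and Zfp36, followed in the mouse kidney across birth. They were chosen by name, and each probe on the array whose gene symbol is one of the 10 was taken, which gave 12 probes. Of 15967 genes with a probe, 9531 were bright enough to be tested, and these included 7 of the 10 (Fos, Jun, Junb, Egr1, Dusp1, Klf4 and Zfp36). The kidneys came from untreated mice of the strain Balb/c at embryonic day 16 (E16d), postnatal day 1 (PN1d) and postnatal day 7 (PN7d), with 5 Illumina MouseRef-8 bead arrays for each age. The study's methods describe the mice as male, and the sources used here do not say whether an array read 1 animal or several, so p-values cover only the spread between these arrays, which may be technical. Levels are the authors' quantile-normalized log2 intensities, in which 1 unit is a doubling of brightness and 6.22 is the median of all values on all arrays. A probe was tested where its mean exceeded that median at 1 age or more, and the brightest probe stood for a gene. A gene was called higher or lower where the p-value of the limma model, adjusted over all genes tested by the Benjamini-Hochberg method, was under 0.05.

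Immediate early genes are transcribed within minutes of a stimulus, without new protein synthesis, because their promoters already carry factors such as SRF and CREB that MAP kinases and other kinases switch on. Fos, Fosb, Jun, Junb and Atf3 encode bZIP proteins, and the Fos and Jun proteins pair to form the AP-1 transcription factor. Egr1 and Klf4 are zinc finger transcription factors, Dusp1 is a phosphatase that switches MAP kinases off again, Zfp36 (tristetraprolin) speeds the decay of mRNAs with AU-rich elements, and Ier2 is a short nuclear protein of the same early response. In kidney these mRNAs are known to rise after ischemia, and they can also rise in any tissue while it is dissected.

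RefSeq promoters (build GRCm38.p6) were searched for 8 of the 10 genes, and not for Egr1 and Ier2. The 150 bases before the start of 4 genes whose values are described below are shown 5′ to 3′, because they carry the kinds of element through which an early response acts. Capitals mark TGACG on either strand (the core of the cAMP response element, CRE) or a CArG box, the element bound by SRF.
Fos, chr12:85473740-85473889, plus strand: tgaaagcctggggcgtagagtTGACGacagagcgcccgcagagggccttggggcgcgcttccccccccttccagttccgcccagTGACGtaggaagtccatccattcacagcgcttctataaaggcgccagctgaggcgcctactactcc
Junb, chr8:84978749-84978898, minus strand: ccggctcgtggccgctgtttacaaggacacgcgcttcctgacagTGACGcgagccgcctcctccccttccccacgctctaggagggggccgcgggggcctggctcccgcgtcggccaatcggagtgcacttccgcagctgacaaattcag
Dusp1, chr17:26508473-26508622, minus strand: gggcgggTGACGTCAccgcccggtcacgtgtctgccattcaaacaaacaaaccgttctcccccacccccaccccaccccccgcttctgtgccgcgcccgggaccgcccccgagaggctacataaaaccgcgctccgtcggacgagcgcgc
Zfp36, chr7:28379229-28379378, minus strand: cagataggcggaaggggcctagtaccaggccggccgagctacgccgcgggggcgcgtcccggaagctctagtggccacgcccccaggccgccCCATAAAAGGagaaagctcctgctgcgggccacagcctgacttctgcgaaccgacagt
Fos has TGACG at 129 to 125 and at 66 to 62 bases before its start, Junb at 106 to 102, and Dusp1 has the whole palindrome TGACGTCA at 143 to 136. Over the 250 bases before the start, searched on both strands, TGACG was found in 6 of the 8 promoters and in 17.8% of the 32851 promoters in the table. The palindrome TGACGTCA, which holds TGACG on each strand, was found in 1 of the 8 (1.55% of all promoters), and the CArG box in 1, Zfp36 (1.47%). The GC box GGGCGG was in 7 of the 8 and in 32.7% of all promoters. The Egr site GCGNGGGCG, which can overlap a GC box, was in 3 of the 8 and 4.70% of all. TATAAA was found in 1, Fos, and in 12.4% of all. The AP-1 site TGANTCA was found in 0 of the 8 and in 6.75% of all. These matches describe the letters of the reference and were not tested. Elements farther than 250 bases from the start, or with other letters, were not looked for. A promoter without a match here may therefore still hold such an element.

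Most marker genes of the labelled tissue were present, and PN1d replicate 2 and all PN7d arrays stood apart on markers of other tissues. Of 11 kidney epithelium markers on the array 10 were bright enough to be tested, and Pax2 was under 6.22 on all 15 arrays (5.82 to 6.02). Of the 10 tested, 6 were higher at PN1d than at E16d and 4 did not pass, where 21.4% of all genes tested were higher and 24.9% lower. The summed intensity of 8 liver markers was 10115 on PN1d replicate 2, between 1603 and 4507 on the other PN1d arrays, from 1266 to 1685 at E16d and from 1096 to 1568 at PN7d. Alb and Fgb, the defining genes for albumin and fibrinogen, were under 6.22 on all 15 arrays, and the signal came from other genes such as Ttr (transthyretin), at 8.31 to 11.27 at PN1d against 7.27 to 8.57 at E16d, and Apoa2 (an apolipoprotein), at 11.46 on PN1d replicate 2 against 6.95 to 8.76 on the other PN1d arrays and 6.28 to 7.67 at E16d. Of 8 neutrophil markers the summed intensity was 1287 to 1922 at PN1d, highest on replicate 2, against 659 to 795 at E16d and 779 to 1020 at PN7d. S100a9, S100a8, Ltf, Lcn2 and Camp were higher at PN1d than at E16d, as were 21.4% of all genes tested. S100a9 and S100a8 rose most (1.93 and 1.90). Ngp and Mpo were called higher as well, but were bright enough to be tested only through PN1d, and Elane was too dim to be tested. Macrophage and endothelium sums were also highest on replicate 2 among the PN1d arrays (971 against 804 to 894, and 5408 against 4544 to 5099). From E16d to PN1d, 4 of 7 endothelium markers tested were higher and 0 lower, and of 7 macrophage markers 0 were higher and 3 lower. Of all genes tested 21.4% were higher and 24.9% lower. At PN7d the summed intensity of 6 adipocyte markers was 7269, 739, 2053, 4758 and 3574 on replicates 1 to 5. Every earlier array had 361 to 377. Ucp1, the uncoupling protein of brown fat, read 8.07 to 12.17 at PN7d against at most 6.08 on every earlier array. Ucp1, Cidea, Cox8b and Adipoq were bright enough to be tested only through PN7d, so a count of their calls is left out. Fabp4 was too dim to be tested, at 5.91 to 6.15 at PN7d against 5.86 to 6.21 earlier, as was Plin1. The part of these cells in the results below was not tested, and in whole-kidney RNA a change in the number of cells of a type and a change in RNA per cell cannot be told apart. The sources used here do not give which arrays shared a slide.

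Fos, a founding member of the AP-1 family, was highest at PN1d, and most of its height came from 2 of the 5 arrays. Its level at PN1d was 6.96, 8.77, 7.02, 6.90 and 7.75 on replicates 1 to 5. At E16d the 5 levels were 6.52, 6.57, 6.76, 6.88 and 6.78, and at PN7d they were 6.78, 6.71, 6.65, 6.96 and 6.89. Replicates 2 and 5 of PN1d lay far above every other array, while the other 3 lay just above the E16d range and partly within that of PN7d. The SD between PN1d arrays was 0.80 (n = 5), larger than that of 99.6% of the genes tested, against 0.15 at E16d and 0.12 at PN7d. Fos at PN1d was 0.77 log2 units above E16d (SE 0.26, limma adjusted p = 0.0225), or 1.71-fold, and no PN1d array overlapped the E16d arrays (exact permutation test, two-sided p = 0.00794, the smallest it allows, or 0.0340 adjusted over the 30 such tests). Without PN1d replicate 2 the rise was 0.45 (adjusted p = 0.0162), and without replicate 5 it was 0.71 and no longer passed (adjusted p = 0.0524). With the methods' t-test in place of the limma model the rise did not pass either (adjusted p = 0.116).
From PN1d to PN7d Fos fell by 0.68 (SE 0.26, limma adjusted p = 0.0436), a call that held only on leaving out PN1d replicate 1, 3 or 4. Leaving out any of the other 12 arrays ended it, with adjusted p from 0.0503 to 0.0900, and without PN1d replicate 2 the fall was -0.36 (adjusted p = 0.0544). The call also ended without the filter on dim probes (limma adjusted p = 0.0819). Between E16d and PN7d Fos differed by 0.10, with a 95% interval from -0.46 to 0.65 (adjusted p = 0.764).

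Jun and Junb, which both pair with Fos proteins, did not pass the test from E16d to PN1d. Jun ran from 7.38 to 7.76 at E16d (median 7.52), from 7.47 to 7.83 at PN1d (7.70) and from 7.19 to 7.79 at PN7d (7.22). The ages overlapped, and at PN7d replicate 2 (7.79) stood above replicate 3 (7.41) and the other 3 (7.19 to 7.22). Jun fell by 0.30 (SE 0.11, limma adjusted p = 0.0371) from PN1d to PN7d, but leaving out PN1d replicate 2, 3 or 4 or PN7d replicate 1, 3, 4 or 5 ended the call (adjusted p from 0.0502 to 0.0896), as did leaving off the filter on dim probes (adjusted p = 0.0630), and neither age differed from E16d past the test (0.13 at PN1d and -0.17 at PN7d). Without PN7d replicate 2 the fall from E16d to PN7d was -0.27 and passed (adjusted p = 0.0144).
Junb, a Jun protein with weaker activating power, was dim and was highest at PN7d. Its levels were 6.27, 6.34, 6.34, 6.38 and 6.32 at E16d, 6.28, 6.55, 6.43, 6.39 and 6.52 at PN1d, and 6.53, 6.86, 6.78, 6.62 and 6.59 at PN7d. Every PN7d array lay above every E16d array, while PN1d overlapped both. Junb was higher at PN7d by 0.35 (SE 0.066, adjusted p = 0.000205) than at E16d and by 0.24 (SE 0.066, adjusted p = 0.00667) than at PN1d, and its 0.10 from E16d to PN1d did not pass (95% interval -0.035 to 0.24). With a background correction (normexp) these rises were 0.57 and 0.39.
Fosb, a close relative of Fos, and Atf3, a stress-induced bZIP factor, were at the floor of the array. Fosb exceeded the median of all values on 2 of 15 arrays, PN1d replicate 2 (6.35) and PN7d replicate 1 (6.37), and ranged from 5.83 to 6.05 on the others. Atf3 ran from 5.90 to 6.23 over the 15 arrays and exceeded the median only on PN1d replicate 1. Both were left out of the model, and exact permutation tests of their 6 comparisons gave two-sided p-values from 0.0635 to 0.913.

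**Figure D1:**
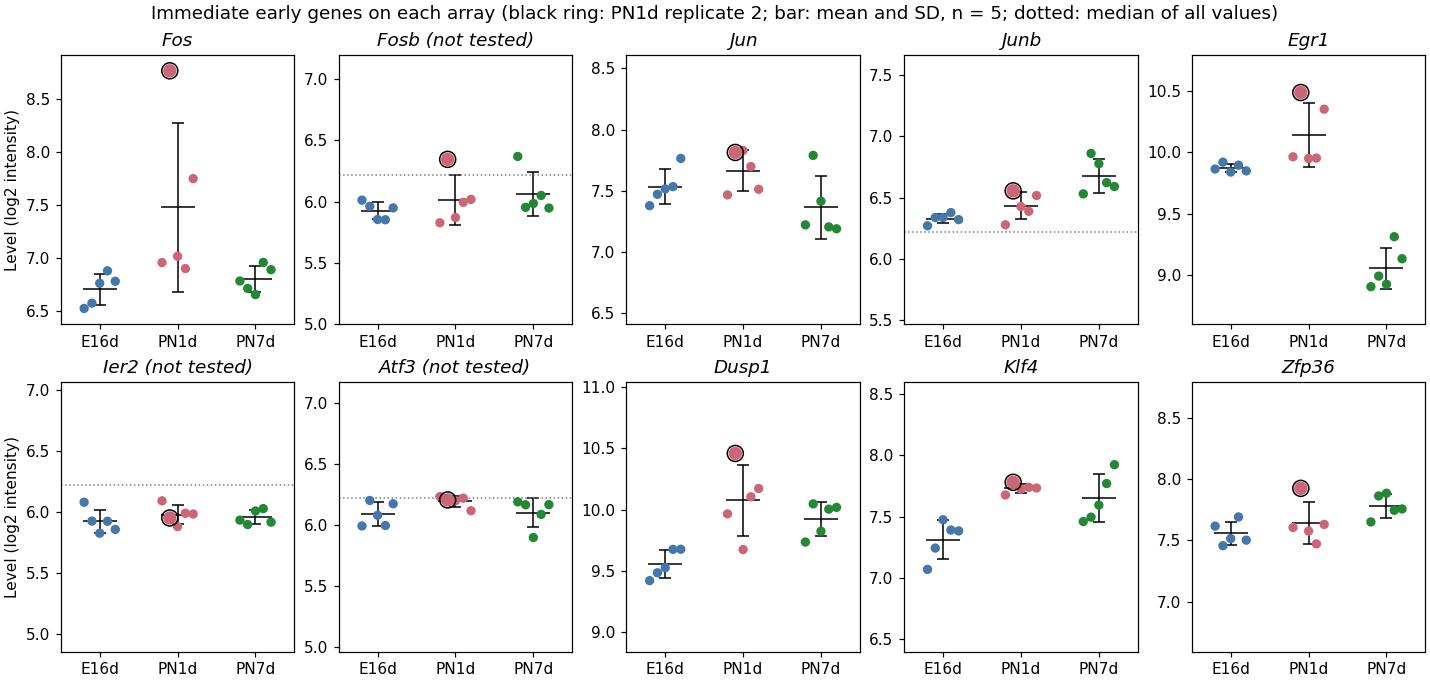
Level (log2 intensity) of the 10 genes on each of the 15 arrays, 1 panel per gene, with the mean and SD of the 5 arrays of an age, a ring round PN1d replicate 2 and a dotted line at the median of all values (6.22), where it falls in the panel. Fos reached 8.77 on the ringed array, Egr1 dropped to between 8.90 and 9.31 at PN7d, and Ier2 stayed under the line on all 15 arrays.

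Egr1, a zinc finger factor switched on by growth factor signals, had the largest change of the 7, a fall after PN1d. Its levels at E16d were 9.86, 9.92, 9.84, 9.90 and 9.85, an SD of 0.034 that was larger than that of 5.10% of the genes tested. At PN1d they were 9.96, 10.49, 9.95, 9.95 and 10.35, and at PN7d they were 8.90, 8.99, 8.92, 9.31 and 9.13. The 3 ages did not overlap, with PN7d lowest, and replicates 2 and 5 of PN1d were again the highest arrays. Egr1 fell by 1.09 (SE 0.10, limma adjusted p = 5.08e-07) from PN1d to PN7d, to 0.470 of its brightness, and this was the change of rank 142 in size among the 9531 genes. PN7d was also lower than E16d, by -0.82 (SE 0.10, adjusted p = 2.96e-06). Without PN1d replicate 2 the fall from PN1d was -1.003 (adjusted p = 6.99e-07).
The rise of Egr1 from E16d to PN1d was small and fragile. It was 0.27 (SE 0.10, adjusted p = 0.0438), and the call ended without any of 8 arrays (each of the 5 of E16d, PN1d replicates 2 and 5, and PN7d replicate 2), with 0.18 (adjusted p = 0.124) without PN1d replicate 2 and 0.22 (adjusted p = 0.114) without replicate 5. It also ended without the filter on dim probes (adjusted p = 0.0733) and with arrays centred on the median of the genes tested (0.25, adjusted p = 0.0537).
Klf4, a zinc finger factor that restrains proliferation in epithelia, was higher at PN1d and PN7d than at E16d by its brightest probe. Its brightest probe gave 7.07, 7.24, 7.48, 7.39 and 7.38 at E16d, 7.68, 7.78, 7.73, 7.74 and 7.73 at PN1d, and 7.46, 7.50, 7.59, 7.77 and 7.92 at PN7d. The PN1d arrays lay close together (SD 0.037) and above every E16d array, whereas 1 PN7d array, replicate 1, fell within the E16d range. Klf4 was higher by 0.42 (SE 0.087, adjusted p = 0.000815) at PN1d and by 0.34 (SE 0.087, adjusted p = 0.00278) at PN7d than at E16d, and the postnatal ages differed by -0.082 (95% interval -0.27 to 0.10). Its 2 other probes were near the median of all values. One gave 0.18 (adjusted p = 0.0160) and 0.24 (adjusted p = 0.00117) against E16d, and the other 0.078 (adjusted p = 0.240) and 0.0085 (adjusted p = 0.895), neither past the test.

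Dusp1, the phosphatase that ends MAP kinase signals and is itself induced by them and by glucocorticoids, was higher at both postnatal ages. Its levels were 9.42, 9.48, 9.53, 9.68 and 9.68 at E16d, 9.97, 10.46, 9.67, 10.11 and 10.17 at PN1d, and 9.74, 10.05, 9.82, 10.0045 and 10.02 at PN7d. All PN7d arrays were above all E16d arrays, while at PN1d replicate 3 lay within the E16d range and replicate 2 was the highest of the 15. Dusp1 rose by 0.52 (SE 0.11, adjusted p = 0.00113), or 1.43-fold, from E16d to PN1d and was higher by 0.37 (SE 0.11, adjusted p = 0.00838) at PN7d. Without PN1d replicate 2 the rise at PN1d was 0.42 (adjusted p = 0.00231). The postnatal ages differed by -0.15 (95% interval -0.39 to 0.087, adjusted p = 0.295). That fall passed without PN1d replicate 3 (-0.25, adjusted p = 0.0455) and was -0.054 without PN1d replicate 2.
Zfp36, which carries the CArG box printed above, rose late and little. It ran from 7.46 to 7.69 at E16d (median 7.52), from 7.47 to 7.93 at PN1d (7.61) and from 7.65 to 7.89 at PN7d (7.76), and the ages overlapped, PN1d replicate 2 being the highest array of all. It was higher at PN7d than at E16d by 0.22 (SE 0.076, limma adjusted p = 0.0164), while 0.085 at PN1d did not pass (adjusted p = 0.384). Its rise from PN1d to PN7d, 0.14 (adjusted p = 0.151), was 0.21 and passed (adjusted p = 0.0144) without PN1d replicate 2.
Ier2 lay between 5.83 and 6.09 on the 15 arrays, always under 6.22. It was left out of the model, and its exact permutation p-values were 0.349 to 0.627 over the 3 comparisons. At this brightness the array does not show whether Ier2, Fosb or Atf3 changed.

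**Figure D2:**
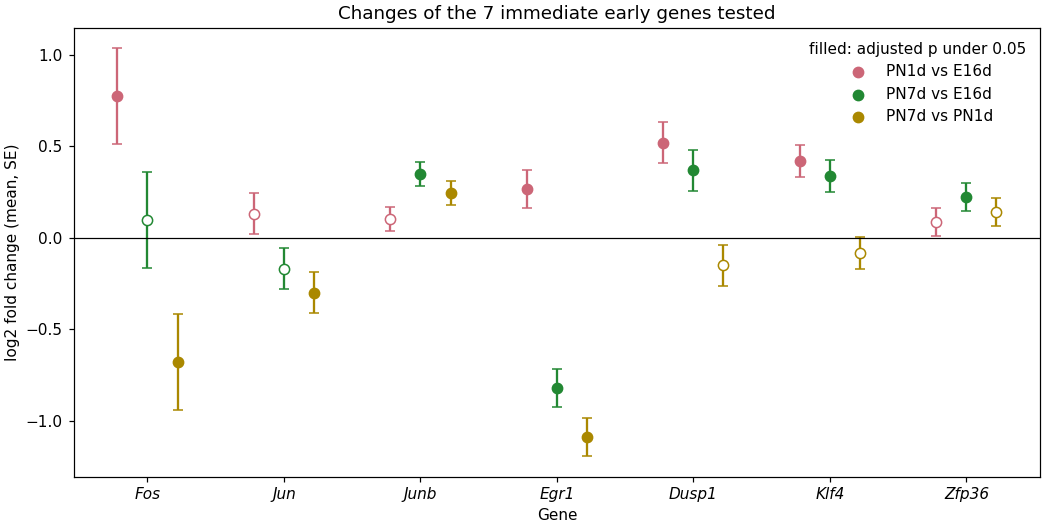
log2 fold changes (limma, with SE as bars) of the 7 genes tested in the 3 comparisons of ages, with filled points for an adjusted p under 0.05. Fos and Egr1 lie above 0 at PN1d (0.77 and 0.27) and below 0 from PN1d to PN7d (-0.68 and -1.09), whereas Junb lies above 0 in both comparisons with PN7d (0.35 and 0.24).

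Counted over the 7 genes, 4 were higher at PN1d than at E16d (Fos, Egr1, Dusp1 and Klf4), 0 were lower and 3 did not pass, where 46.3% of all genes tested were called in this comparison with 21.4% higher and 24.9% lower. Leaving out PN1d replicate 2 kept 3 of the calls and replicate 5 kept 2. Their median log2 fold change was 0.27, against -0.016 over all genes tested. The arrays of both ages did not overlap for 3 of the 7, all higher, against 37.0% of all genes in either direction (17.6% higher and 19.3% lower).
At PN7d against E16d, 4 were higher (Junb, Dusp1, Klf4 and Zfp36) and 1, Egr1, was lower, where 64.5% of all genes were called (32.3% higher and 32.2% lower). The arrays did not overlap for 2 of them that were higher (Junb and Dusp1) and for Egr1, against 50.1% of all genes (25.3% higher and 24.8% lower). From PN1d to PN7d, 3 were lower (Fos, Jun and Egr1) and 1, Junb, was higher, against 45.4% of all genes called (24.1% higher and 21.2% lower). The arrays did not overlap for 1, Egr1, against 27.8% of all genes (14.4% higher and 13.4% lower). The calls of Fos and Jun were the ones lost when PN7d replicate 1, 3, 4 or 5 was left out, which left 2. In each comparison the share of the 7 that was called was near the share of all genes. The comparisons share arrays pairwise, so these counts are not independent.

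Within an age, some of the 7 genes were high on the same arrays. PN1d replicate 2 was the highest PN1d array for 6 of the 7 (all but Jun), and its median deviation from the PN1d mean was 0.28, where that array was the highest for 1903 of the 9531 genes tested. E16d replicate 1 was the lowest E16d array for 5 of the 7 and PN7d replicate 1 the lowest PN7d array for 5 of the 7, against 24.0% and 14.2% of all genes. Deviations from the age mean of Fos went with those of Egr1 (r = 0.84 over 15 arrays, 0.79 without PN1d replicate 2) and Dusp1 (r = 0.75, 0.58 without it), but not with those of Jun (r = 0.12). Jun instead went with Junb (r = 0.69, 0.67 without it). Zfp36 went with Fos (r = 0.70), but less so without PN1d replicate 2 (r = 0.36). Klf4 reached at most r = 0.40, with Dusp1, and had -0.10 with Jun and 0.011 with Zfp36. These are descriptions over arrays of the same hybridization series, given without a test.
PN1d replicate 2 was also the PN1d array with the highest liver, neutrophil, macrophage and endothelium sums. Of 7 macrophage markers tested 5 were highest on it, while Cx3cr1 was lowest (6.48). Of 5 erythroid markers 4 were highest on it, Slc4a1 at 9.55 against at most 8.12 on the other PN1d arrays. Their sum was not the highest (13348 against 14000 on replicate 4). The part of all these cells in its Fos level was not tested. PN7d replicate 1, the lowest PN7d array for 5 of the 7, had the highest adipocyte sum (7269). PN7d replicate 2, which had the lowest (739), was the highest PN7d array for Jun, Junb and Dusp1. PN7d replicate 4, with the second adipocyte sum (4758), was the highest PN7d array for Fos (6.96) and Egr1 (9.31). The part of adipocytes in the PN7d values was not tested. Among the other PN1d arrays, replicate 5, with Fos at 7.75 and Egr1 at 10.35, had the lowest liver (1603) and neutrophil (1287) sums of that age. Replicate 4, with the second liver sum (4507), had the lowest Fos (6.90). The part of liver, neutrophil and other such cells in the PN1d values was not tested. The sources used here do not give how long each kidney waited before RNA was taken, and the part of handling was not tested.

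**Figure D3:**
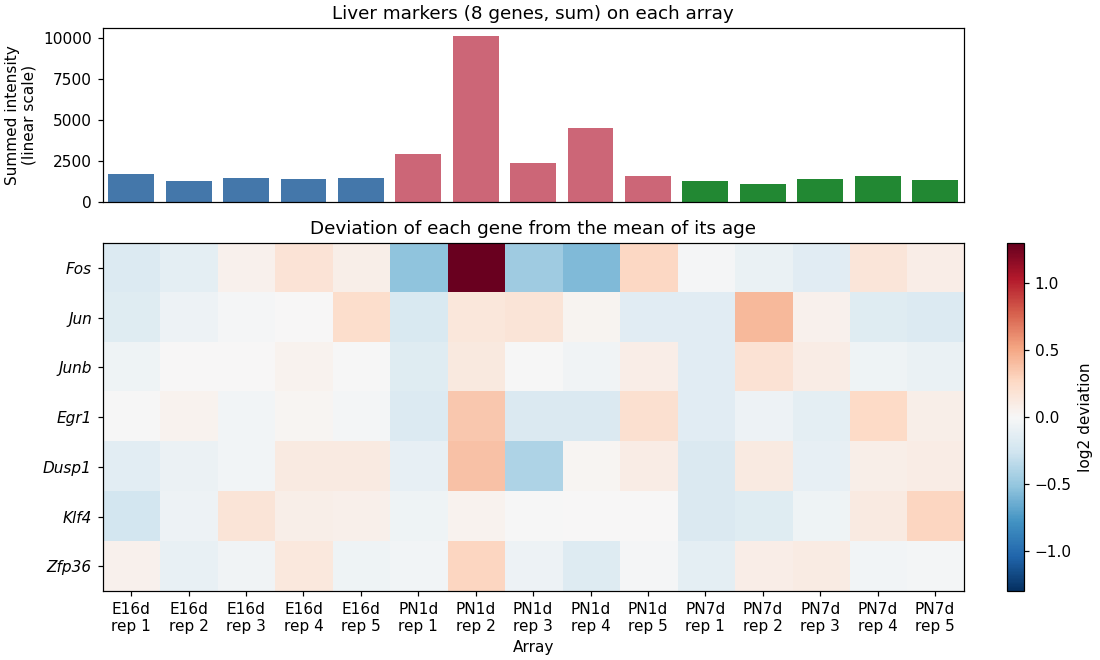
Upper panel, summed intensity (linear scale) of 8 liver markers on each array; lower panel, log2 deviation of each of the 7 genes from the mean of its age on the same arrays, with red above and blue below that mean. PN1d replicate 2 has the tallest bar (10115) and the deepest red for Fos. Replicate 5 has red for Fos and Egr1 and the lowest bar of PN1d (1603). A link between the panels was not tested.

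The list of heat shock and handling stress genes held 13, of which 8 were on the array and tested. Among those 8, 6 were lower at PN1d than at E16d and 1 was higher (24.9% and 21.4% of all genes), with a median of -0.46. Hsph1, a large chaperone of the HSP110 family, changed by -1.44 (SE 0.080, limma adjusted p = 1.70e-09), with 9.40 to 9.91 at PN1d against 11.02 to 11.18 at E16d. The higher gene was Hmox1, which breaks down heme, at 11.02 to 12.07 against at most 9.36 at E16d, a rise of 2.30 (SE 0.16, adjusted p = 1.45e-08). PN1d replicate 2, the highest array for Fos, was the lowest PN1d array for Hsph1 (9.40) and Hmox1 (11.02). It was the highest for 1 of the 8, the small chaperone Hspb1 (9.35 against at most 9.19). The part of handling in these values was not tested.
Of 10 glucocorticoid targets tested, 6 were higher and 1 lower at PN1d (21.4% and 24.9% of all genes), and 9 of the 10 were highest on replicate 2 among the PN1d arrays, against 1903 of the 9531 genes tested. Pdk4, which restrains glucose oxidation, rose by 1.75 (SE 0.15, adjusted p = 1.62e-07) and Klf9, a Krüppel-like factor, by 1.14 (SE 0.099, adjusted p = 1.45e-07). Dusp1 is a member of that list as well.
Of 11 kinases and factors upstream of immediate early genes that were tested, including Srf and Creb1, 1 was lower at PN1d than at E16d and 0 were higher, where 24.9% of all genes were lower and 21.4% higher. That was Mapk8, the kinase JNK1 that phosphorylates Jun, with -0.35 (SE 0.13, adjusted p = 0.0376). At PN7d 3 were lower than at E16d (Mapk8, Creb1 and Rps6ka3) and 1, Mapk9, was higher, where 64.5% of all genes were called.

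Of 47 other genes of the early response listed, 35 were tested, and they were called in both directions at about the rate of all genes. At PN1d 12 were higher than at E16d and 3 lower (42.9% called, against 46.3% of all genes), with a median of -0.013, and at PN7d 13 were higher and 9 lower (62.9% called, against 64.5%), with a median of 0.099. From PN1d to PN7d 8 were higher and 8 lower (45.7% called, against 45.4%). PN1d replicate 2 was the highest array of its age for 15 of the 35, against 1903 of the 9531 genes tested.
Ier3, which acts on cell survival, had the largest rise at both ages, from 8.40 to 8.67 at E16d to between 9.61 and 10.07 at PN1d and between 9.79 and 9.99 at PN7d, or 1.40 at each (SE 0.079, limma adjusted p = 1.76e-09 and 2.25e-10). Cebpb, a bZIP factor of metabolism and inflammation, rose by 0.83 (SE 0.068, adjusted p = 8.10e-08) at PN1d and 0.68 at PN7d. Sgk1, a kinase that raises sodium transport in the distal nephron, rose by 0.78 (SE 0.090, adjusted p = 3.08e-06) at PN1d, and Ccn2, a secreted matrix regulator, by 1.02 (SE 0.16, adjusted p = 2.79e-05) at PN7d. Every postnatal array of Ier3, Cebpb and Sgk1 and every PN7d array of Ccn2 lay above the E16d range.
The falls were led by Cebpd, the sister gene of Cebpb, with -0.52 (SE 0.076, adjusted p = 2.95e-05) at PN1d and -0.95 at PN7d. Ier5l (-0.43) and Plk2, a polo-like kinase (-0.42), were the other 2 at PN1d. At PN7d the next were Dusp6, a phosphatase for ERK, with -0.53 (SE 0.072, adjusted p = 6.41e-06), and Socs3, a brake on cytokine signals, with -0.49. Dusp6 and Cebpd also fell from PN1d to PN7d (-0.50 and -0.42), with Socs3 (-0.40), while Ccn2 (0.46), Nfkbiz (0.31) and Gadd45a (0.29) rose.

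**Figure D4:**
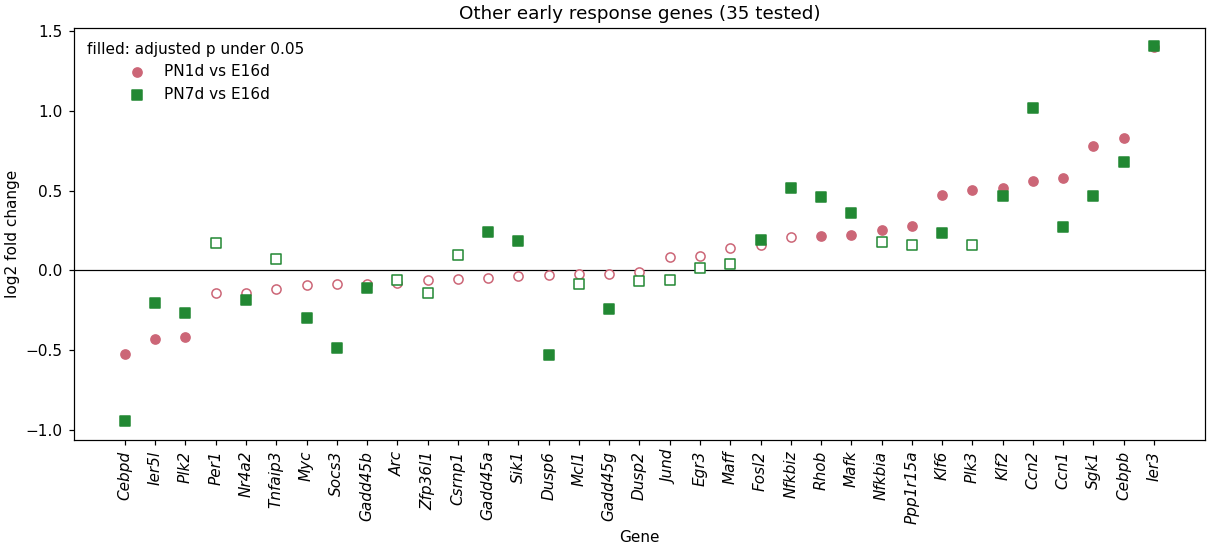
log2 fold changes of the 35 other early response genes tested, ordered by the change from E16d to PN1d (circles), with the change from E16d to PN7d as squares and filled marks for an adjusted p under 0.05. Ier3 is at 1.40 in both comparisons and Cebpd at -0.52 and -0.95.

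The genes whose levels were most like the mean of the 7 (each set to mean 0 and SD 1 over the 15 arrays) were Stom (r = 0.92, rho = 0.91), Plk3 (0.88, 0.85), Niban1 (0.88, 0.89), Garre1 (0.86, 0.84) and Pim3 (0.86, 0.82), as Pearson's r and Spearman's rho. Plk3, a polo-like kinase, is itself on the list of other early response genes. It read 8.48 on PN1d replicate 2 against at most 7.53 on any other PN1d array. Pim3, a serine/threonine kinase, read 11.38 against at most 10.88, and Stom, the membrane protein stomatin, 8.69 against at most 8.21. Without the 2 arrays farthest from the median of the mean (PN1d replicate 2 and E16d replicate 1) the r values were 0.69 to 0.82. Ranked by deviations from the age means, the closest were Ero1b (r = 0.86, rho = 0.77), Trim23 (0.85, 0.67), Rcc2 (0.82, 0.82), Stom (0.82, 0.63) and Gcnt2 (0.82, 0.67). Without PN1d replicate 2 and PN7d replicate 1 these r values were 0.63 to 0.73. The genes were picked from 9531 as the best matches, so the coefficients are descriptions without a test.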

How the data were processed

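Whole-kidney RNA was hybridized to 15 Illumina MouseRef-8 arrays, which the authors scanned, processed in BeadStudio and quantile-normalized. The deposited table gives their log2 intensities, a scale taken from the values: as natural logarithms the highest would be an intensity of 988860, above the 65535 of a 16-bit scanner. A further table of 30 columns (signals and detection p-values) was not used, because no label ties its sample numbers to an age, so detection above background was not determined. Probes were named through the platform annotation (20984 with 1 symbol, 1 with several, 3628 with none, 20968 matched to RefSeq by Entrez number). Arrays were grouped by the deposited labels. The brightest probe per gene past the median filter (13074 probes, 9531 genes) entered limma 3.58.1 in R 4.3.3 with the 3 ages in 1 fit and no block, and 95% intervals are those of the model. Precision rests on 5 arrays an age, and the median SD within an age was 0.082 to 0.12. No pair of arrays within an age was identical (r from 0.990 to 0.997). The fit was tested on simulated data.
The 10 genes and the lists were chosen with earlier results of these data known. Genes were named by a rule: the 10, the 3 largest rises and falls past the test per comparison among the other early response genes, the 5 most alike in level and in deviation, and up to 2 of each stress, glucocorticoid, upstream and, where described, marker list. Further genes of those lists were named where they make up or limit a count or a sum. Alternatives covered the filter, probes, background correction (normexp, offset 16), centring, variance model, array weights and a block for the replicate number. They also covered Student's t-test, a fit of only the ages compared, and each array left out. Plots used matplotlib 3.10.9 and Python 3.11.15.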

Additional observations from a re-analysis of the deposited data

Results flagged for a closer look

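Of 30 sets of 5 arrays (10 genes, 3 ages), 1 held an array far from the other 4, where chance flags about 1 in 20. Fosb on PN7d replicate 1 read 6.37 and the next array 6.05, a gap of 0.755 of the range of that age, past Dixon's limit of 0.71 for 5 arrays. The other 4 arrays of that age were under the median of all values (6.22) for Fosb. Fos on PN1d replicate 2 did not pass this limit, since replicate 5 was high as well.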

How the results depend on the processing

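Of 552 values of single genes under the alternatives, 502 kept their direction and side of the threshold, 46 lost the call (28 of them on leaving out 1 array), 3 gained one and 1 turned: Klf4 from PN1d to PN7d was 0.066 by another of its probes. Of the 7 genes tested, those called from E16d to PN1d numbered 4, and 2 to 4 on leaving out each array. With Student's t-test they numbered 2 both before and after Benjamini-Hochberg adjustment, and Fos and Egr1 were lost. From PN1d to PN7d the genes called numbered 4, and 2 to 4 on leaving out each array. They numbered 2 without the filter on dim probes and 1 with the filter at the upper quartile (fewer genes tested). A fit of the arrays of those ages only gave 2, and Student's t-test gave 2 before and 2 after adjustment. From E16d to PN7d they numbered 5, and 5 to 6 on leaving out each array. The other early response genes called numbered 14 to 16, 18 to 23 and 13 to 17 (in the order E16d to PN1d, E16d to PN7d, PN1d to PN7d) on leaving out each array. With the replicate number as a block the 7 genes gave 4, 5 and 4 calls and the other early response genes 15, 22 and 16, the same counts as without it. Deviations of same-numbered arrays correlated from -0.23 to 0.21 in 15 pairs, and 4 of 15 arrays were closest to their own number. No pairing by number was seen, but a shared slide or processing order cannot be told from these values. The calls of Junb, Egr1, Dusp1, Klf4 and Zfp36 at PN7d against E16d held on leaving out each array. So did those of Klf4 and Dusp1 at PN1d against E16d, and of Junb and Egr1 from PN1d to PN7d. Brightness near the floor limits Fosb, Ier2, Atf3 and Junb.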
